A study of Mus musculus with 9 samples.

Results

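The unconventional myosins described here are the motor genes Myo1h, Myo1c, Myo1e, Myo1f, Myo1g, Myo5a and Myo9b, which were taken by symbol from the table of TPM (length- and depth-scaled transcript abundance) and make up 7 of its 55401 mouse genes. They were chosen by the TPM of these same samples, namely the level of Myo1h, which was high with LPS and low in the other groups, and the others were listed beside it by symbol. Their levels and differences are therefore given as a description, without a test. RNA was sequenced from RAW264.7, a mouse macrophage line grown from a male Abelson murine leukemia virus-induced tumor and labelled wild type. One group received DMSO, the vehicle, one received DMSO with LPS (a bacterial wall component that drives M1 polarization), and one received LPS with skatole (LPS + Ska), an indole compound under study for its effect on macrophage polarization. Each group holds 3 samples, numbered 5, 6 and 7. The labels and the results section of the paper give 24 h of treatment, whereas its methods section gives a longer time. No skatole-only group was analysed here, all samples share a single transformed line, and nothing states that the samples of a group came from separate cultures.

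Unconventional myosins are motors that walk on actin filaments with a head like that of muscle myosin but do not form filaments themselves. Class I myosins are single-headed and tie membranes to the actin cortex, and they include a short-tailed set (Myo1c, Myo1d, Myo1g, Myo1h) and a long-tailed set (Myo1e, Myo1f) whose tails end in an SH3 domain. Myo5a is a double-headed processive motor that carries vesicles and organelles, and Myo9b carries a RhoGAP domain that switches off RhoA. In macrophages and other leukocytes such motors act in phagocytosis, adhesion, membrane tension and migration.

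Because TPM is a value per unit of transcript length, scaled to a fixed total in each sample, levels of different genes can be set side by side, but TPM keeps no record of sequencing depth. The columns of the table summed to between 999895 and 1000145, and 12498 to 13012 genes per column had at least 1 TPM. In LPS and in LPS + Ska, every gene with replicates 6 and 7 above 0 had their mean as its replicate 5 (17950 and 17658 genes, within 5e-06 TPM), whereas this held for 10 of 16674 genes in DMSO. Each of these groups thus carries no more than 2 independent values per gene, and the SDs and p-values below measure the spread of columns that are tied in this way. In these groups, leaving out 1 column at most shifts weight between those values and does not remove an independent sample. Overlaps of samples below are those of the columns as deposited, unless recovered values are named. All 6 macrophage markers (Lyz2, Cd68, Adgre1, Csf1r, Itgam, Ptprc) had a mean of at least 1 TPM, with a summed level of 10706 to 11656 TPM in DMSO, 5613 to 5955 TPM in LPS and 11279 to 11419 TPM in LPS + Ska. Lyz2 made up most of this sum (8866 to 9673, 4219 to 4627 and 9915 to 10207 TPM). Cd68 and Csf1r were instead lower in LPS + Ska than in LPS, at 574 to 642 against 645 to 669 TPM and 454 to 479 against 500.1 to 543 TPM. Itgam was higher in LPS + Ska, at 69.9 to 91.5 against 58.9 to 63.5 TPM. The samples of these groups overlapped in Adgre1 and Ptprc. None of the 16 markers of fibroblasts, T cells, B cells, epithelium or striated muscle reached a mean of 1 TPM. In bulk RNA, fewer cells of a kind and less RNA per cell cannot be told apart.

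Myo1h lies on chr5:114289166-114365357 (plus strand, mouse GRCm38) and has 10 annotated transcripts, 6 of them coding. Their starts range from the first exon to positions near the 3′ end of the gene. RefSeq gives a start near the first exon and one inside the gene, and both 300-base windows (250 bases before the start and 50 after, GRCm38.p6, plus strand) are shown because Myo1h is the member around which the set was chosen. The first covers chr5:114289003-114289302 and the internal one chr5:114356565-114356864. Lower case is sequence without a match, and capitals mark a match to the NF-kB consensus on the minus strand, 119 to 110 bases before the internal start.
Myo1h first start: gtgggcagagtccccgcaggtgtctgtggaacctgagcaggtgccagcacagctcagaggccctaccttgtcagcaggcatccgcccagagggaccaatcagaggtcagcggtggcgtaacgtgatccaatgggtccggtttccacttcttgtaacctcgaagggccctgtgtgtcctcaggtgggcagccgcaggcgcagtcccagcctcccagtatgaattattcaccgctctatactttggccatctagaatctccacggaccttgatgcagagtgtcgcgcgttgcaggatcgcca
Myo1h internal start: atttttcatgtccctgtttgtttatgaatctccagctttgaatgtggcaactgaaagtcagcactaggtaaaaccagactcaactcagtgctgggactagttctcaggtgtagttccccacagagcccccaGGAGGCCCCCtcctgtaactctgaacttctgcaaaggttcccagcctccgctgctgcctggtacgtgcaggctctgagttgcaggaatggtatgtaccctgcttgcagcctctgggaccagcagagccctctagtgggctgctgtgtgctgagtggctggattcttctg
The windows were searched on both strands for the NF-kB consensus, the AP-1 site TGANTCA, the interferon response element (ISRE) core and the PU.1 core GAGGAAGT. These are found in 8.46%, 7.81%, 3.44% and 3.20% of the 32851 windows in the table, respectively. Of the 10 windows of the 7 members, 2 held a match, the other being an AP-1 site (TGACTCA) 83 to 77 bases before a start of Myo1c. The shares above are for each motif alone. The share of windows with any of these motifs was not counted, so nothing is read from the 2 of 10. The first Myo1h window held no match. A match of letters is a description and not a shown binding site.

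Myo1h was listed at 0 TPM in all 3 DMSO samples. With LPS it reached 7.14, 7.35 and 6.94 TPM (replicates 5, 6 and 7), and with LPS + Ska it stood at 0.106, 0.197 and 0.0142 TPM. The LPS samples thus lay far above both other groups, and the LPS + Ska samples lay slightly above the DMSO zeros without overlap. On the log2(TPM + 1) scale, which compresses low values, LPS was higher than DMSO by 3.03 (SE 0.14, 95% interval 2.71 to 3.34), and LPS + Ska differed from LPS by -2.88 (SE 0.14, -3.20 to -2.57). LPS + Ska differed from DMSO by 0.14 (SE 0.14). The mean TPM with LPS + Ska was 1.48% of that with LPS, and no fold is given against DMSO because that group is listed at 0. With a pseudocount of 0.1 in place of 1, the same 3 differences were 6.18, -5.24 and 0.93, so their size depends on how low values are treated.

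**Figure D1:**
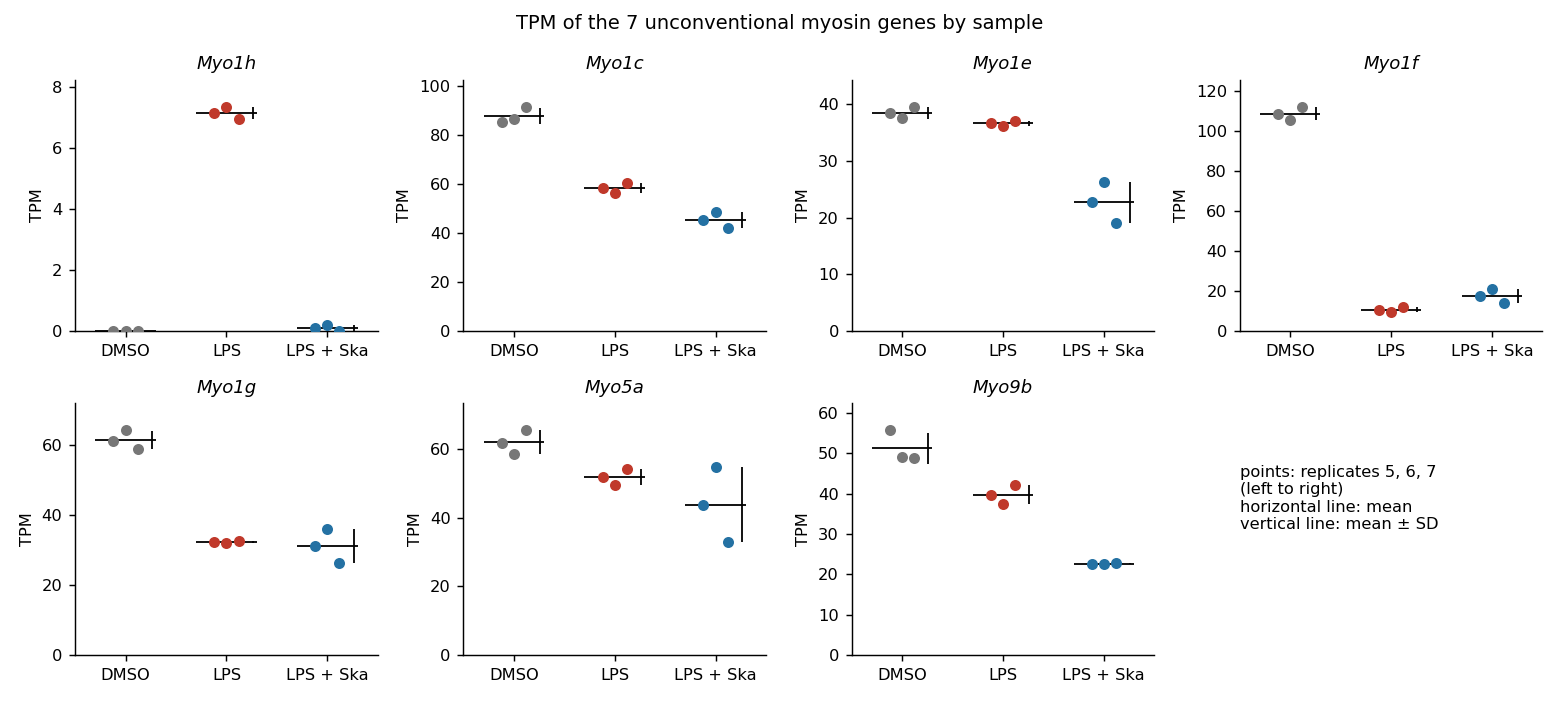
TPM (y axis, linear, from 0) of the 7 members in each sample of DMSO, LPS and LPS + Ska, with points for replicates 5, 6 and 7, a horizontal line for the mean and a vertical line for mean ± SD. Myo1h is at 6.94 to 7.35 TPM in LPS and at most 0.197 TPM elsewhere, Myo1f is at 105 to 112 TPM in DMSO and at most 21.0 TPM in the other groups, and Myo9b steps down from DMSO to LPS to LPS + Ska.

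Myo1h shares exon sequence with a neighbour. Kctd10, an adaptor of the cullin-3 ubiquitin ligase, runs on the opposite strand and overlaps the 3′ end of Myo1h, and 1530 of the 5927 exon bases of Myo1h (25.8%) are also exon bases of Kctd10. Of the 6153 different 50-base words in the transcripts of Myo1h, 1432 (23.3%) also occur in Kctd10, on either strand. The strand setting of the counting is not given in the sources used here, so in this stretch reads of the 2 genes may not be told apart. Kctd10 was at 31.1, 27.4 and 31.7 TPM in DMSO, 21.8, 21.6 and 22.1 TPM in LPS, and 32.5, 35.6 and 29.4 TPM in LPS + Ska. It was thus lowest in the group in which Myo1h was highest, with a log2 difference of -0.44 (SE 0.09, adjusted p = 0.0017, limma) for LPS and DMSO and of 0.55 (SE 0.09, adjusted p = 0.0020) for LPS + Ska and LPS, both inside the fold limits used to call a gene. The part of this overlap in the Myo1h level was not tested.

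The other genes next to Myo1h had varied profiles. On the side before it, Ung, which removes uracil from DNA, went from 35.9 to 39.0 TPM in DMSO to 27.5 to 29.4 TPM in LPS and 19.4 to 24.9 TPM in LPS + Ska. Acacb, an acetyl-CoA carboxylase of the mitochondrial surface, was at 0.175 to 0.345 TPM in DMSO, 0.212 to 0.663 TPM in LPS and 0.152 to 0.172 TPM in LPS + Ska, so that LPS overlapped DMSO and lay above LPS + Ska, and the transcription factor gene Foxn4 was listed at 0 throughout. Past Kctd10, the ubiquitin ligase Ube3b was at 31.2 to 36.7 TPM in DMSO, 18.2 to 21.8 TPM in LPS and 13.9 to 16.1 TPM in LPS + Ska. The micro-RNA gene Mir7027 varied within DMSO from 0.433 to 4.06 TPM and did not exceed 1.21 TPM elsewhere. Ube3b fell with LPS (log2 difference -0.72, SE 0.09, adjusted p = 1.6e-04), and Ung and Ube3b were both lower with LPS + Ska than with DMSO (-0.74, adjusted p = 8.0e-05, and -1.11, adjusted p = 8.8e-06).

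**Figure D2:**
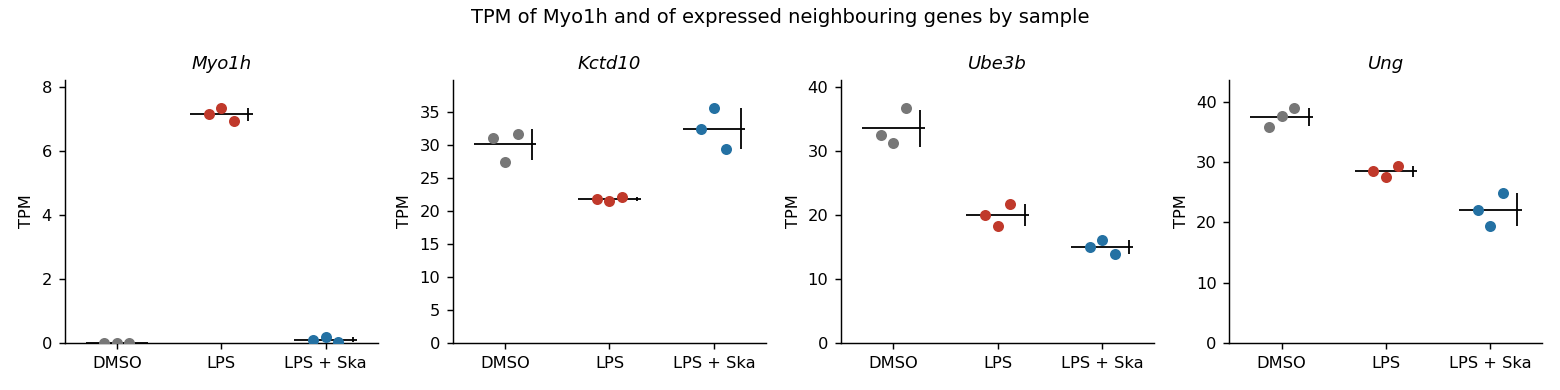
TPM (y axis, linear, from 0) of Myo1h and of its expressed neighbours Kctd10, Ube3b and Ung by sample, with points for replicates 5, 6 and 7, a horizontal line for the mean and a vertical line for mean ± SD. Kctd10 dips to 21.6 to 22.1 TPM in LPS, where Myo1h peaks, while Ube3b and Ung step down over the 3 groups.

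The 5 genes whose log2(TPM + 1) followed Myo1h most closely over the 9 columns, among 12818 others, were Gm26377 (Pearson r 0.998), a gene without a symbol (ENSMUSG00000118471, 0.998), Mir5618 (0.997), Ddx60 (0.995) and Nfatc1 (0.993). No other gene reached 0.99. The columns fall into 3 groups and are partly tied, so these coefficients rest on few independent points and describe a shape, high in LPS and low elsewhere. Only genes with a mean of at least 1 TPM were ranked, so a gene near 0 in DMSO and LPS + Ska enters only if high in LPS. Myo1h, Gm26377, ENSMUSG00000118471, Mir5618 and Ddx60 entered in this way. The list is thus partly set by the filter, and nothing is read from its make-up. Ddx60, an interferon-induced RNA helicase, was at 2.79 to 2.99 TPM in LPS and at most 0.227 TPM in the other groups. Nfatc1, the transcription factor that drives osteoclast formation, had the same shape on a raised floor, with 52.9 to 55.3 TPM in DMSO, 166 to 170 TPM in LPS and 52.0 to 70.7 TPM in LPS + Ska.

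Among the other short-tailed class I members, Myo1c, which helps GLUT4 vesicles fuse and tethers membranes, had 85.5, 86.6 and 91.7 TPM in DMSO, 58.5, 56.4 and 60.5 TPM in LPS, and 45.4, 48.7 and 42.1 TPM in LPS + Ska. The 3 groups did not overlap and were ordered DMSO, LPS, LPS + Ska from high to low. The log2 differences were -0.58 (SE 0.07) for LPS and DMSO, -0.36 (SE 0.07) for LPS + Ska and LPS, and -0.94 (SE 0.07) for LPS + Ska and DMSO. Myo1g, a haematopoietic myosin of the plasma membrane, had 61.4, 64.3 and 59.0 TPM in DMSO, 32.3, 32.0 and 32.7 TPM in LPS, and 31.1, 36.0 and 26.3 TPM in LPS + Ska. Both LPS groups were thus at 52.5% and 50.6% of the DMSO mean, and they overlapped each other. LPS and DMSO differed by -0.91 (SE 0.10), and LPS + Ska and LPS by -0.06 (SE 0.10, 95% interval -0.29 to 0.16), a difference whose sign turned with median-ratio scaling of the columns (0.04) and without LPS + Ska replicate 7 (0.05).

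The long-tailed members differed from each other. Myo1f, a leukocyte myosin of neutrophil and macrophage adhesion and phagocytosis, had 108, 105 and 112 TPM in DMSO and was the most abundant of the 7 there. With LPS it was at 10.7, 9.47 and 11.9 TPM, and with LPS + Ska at 17.5, 21.0 and 14.0 TPM. The mean was 10.2-fold lower in LPS than in DMSO (log2 difference -3.24, SE 0.13, 95% interval -3.53 to -2.94). It was 1.64-fold higher in LPS + Ska than in LPS (0.65, SE 0.13, 0.36 to 0.95), yet remained 6.19-fold under DMSO (-2.58, SE 0.13). The 3 groups did not overlap, and Myo1f was the sole member with a higher level in LPS + Ska than in LPS. Myo1e, its close relative at podosomes and phagocytic cups, had 38.4, 37.5 and 39.5 TPM in DMSO, 36.6, 36.2 and 37.0 TPM in LPS, and 22.7, 26.3 and 19.0 TPM in LPS + Ska. DMSO and LPS lay next to each other (-0.07, SE 0.10, 95% interval -0.30 to 0.16, and 0.02 with median-ratio scaling), while LPS + Ska lay under both, by -0.68 (SE 0.10) and -0.75 (SE 0.10). Myo1f was thus far under its DMSO level in both LPS groups, and Myo1e was at 58.9% of its DMSO mean in LPS + Ska.

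Myo5a, which carries melanosomes, vesicles and secretory granules, had 61.9, 58.5 and 65.5 TPM in DMSO, 51.9, 49.5 and 54.2 TPM in LPS, and 43.8, 54.8 and 32.8 TPM in LPS + Ska. It had the widest spread of the members in LPS + Ska (SD 11.0 TPM over 3 tied columns), where its samples overlapped those of LPS. This overlap depends on the tied columns, and how those were made is not stated. The 2 values recovered from them, which lie nearer the group mean, were 49.3 and 38.3 TPM in LPS + Ska. In LPS they were 50.7 and 53.0 TPM, without overlap. LPS and DMSO differed by -0.25 (SE 0.15), and LPS + Ska and LPS by -0.27 (SE 0.15), an interval of -0.60 to 0.07 that shrank to a difference of -0.08 without LPS + Ska replicate 7. Myo9b had 55.7, 49.0 and 48.9 TPM in DMSO, 39.8, 37.4 and 42.1 TPM in LPS, and 22.6, 22.6 and 22.7 TPM in LPS + Ska. Its groups did not overlap, with differences of -0.36 (SE 0.07) for LPS and DMSO and -0.78 (SE 0.07) for LPS + Ska and LPS, and LPS + Ska was at 44.2% of the DMSO mean. It shares 116 exon bases (1.55% of its own) with Haus8 on the opposite strand. Myo1e, Myo1f and Myo1g held no 50-base word found in another gene, and in Myo1c, Myo5a and Myo9b such words made up less than 1% of the total.

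Set side by side, the LPS and DMSO samples did not overlap in any of the 7 members, with 1 higher (Myo1h) and 6 lower in LPS. Of all 12819 genes with a mean of at least 1 TPM, 68.9% did not overlap in that comparison, 30.3% higher and 38.6% lower. Between LPS + Ska and LPS, 1 member was higher without overlap (Myo1f), 4 were lower (Myo1h, Myo1c, Myo1e, Myo9b) and 2 overlapped (Myo1g, Myo5a), beside 51.2% of all genes without overlap, 17.2% higher and 34.0% lower. With the values recovered from the tied columns, Myo5a was lower without overlap and Myo1g still overlapped. Between LPS + Ska and DMSO, 1 was higher (Myo1h) and 6 were lower, beside 64.8% of all genes, 23.0% higher and 41.8% lower. Myo1h is counted there on at most 0.197 TPM against a listed 0, and its fitted difference was 0.14 (SE 0.14, 95% interval -0.17 to 0.46). The median log2 difference of the 7 was -0.36, -0.36 and -0.94 in these comparisons, and that of all genes tested was -0.07, -0.10 and -0.18. By the fold and adjusted p limits given below for other genes, 32.7%, 9.49% and 36.7% of all genes passed in these comparisons. Since the members were chosen with these values in view, nothing is read from the counts. The comparisons share samples, so the differences of a gene in them are not independent. Median-ratio scaling moved the median of all genes from -0.18 to -0.0033 in LPS + Ska and DMSO, from -0.07 to 0.01 in LPS and DMSO, and from -0.10 to -0.0016 in LPS + Ska and LPS. With it, the 6 members other than Myo1h still differed by -0.33 (Myo5a) to -2.39 (Myo1f) between LPS + Ska and DMSO.

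**Figure D3:**
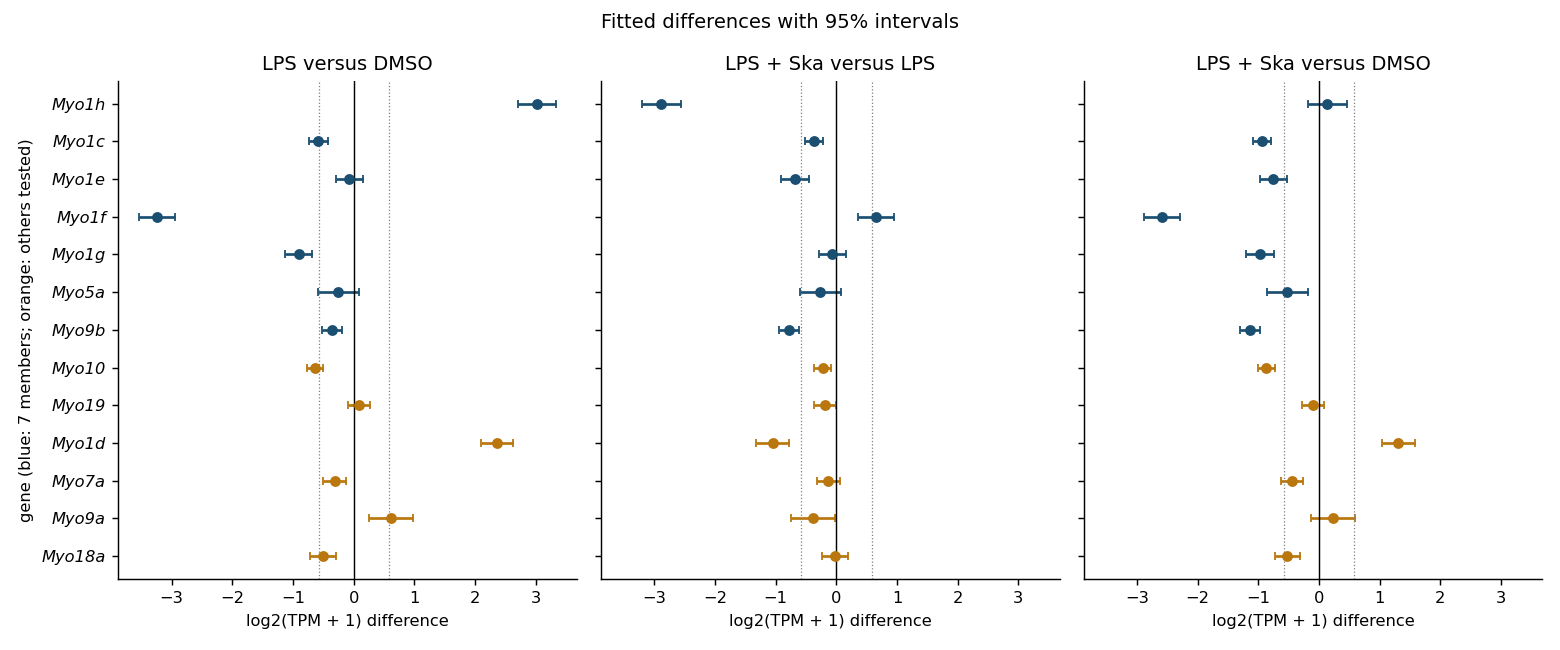
Fitted log2(TPM + 1) differences (x axis) with 95% intervals for the 7 members (blue) and the 6 other unconventional myosins tested (orange) in the 3 comparisons, with dotted lines at the fold limits of 1.5 and 0.67. Myo1h and Myo1d lie far to the right and Myo1f far to the left in LPS and DMSO, and in LPS + Ska and LPS the points of Myo1h and Myo1d are to the left of 0 and that of Myo1f to the right.

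The order of the members by TPM differed between the groups. In DMSO it was Myo1f, Myo1c, Myo5a, Myo1g, Myo9b, Myo1e and Myo1h, and Myo5a and Myo1g were the only neighbours whose samples overlapped. With LPS it was Myo1c, Myo5a, Myo9b, Myo1e, Myo1g, Myo1f and Myo1h, with no overlap between neighbours, although the closest Myo9b and Myo1e samples lay at 37.4 and 37.0 TPM. With LPS + Ska it was Myo1c, Myo5a, Myo1g, Myo1e, Myo9b, Myo1f and Myo1h. There each of the first 4 overlapped the gene ranked next, and Myo1f and Myo1h did not overlap the gene ranked before them. With the recovered values, Myo5a (38.3 and 49.3 TPM) and Myo1g (28.7 and 33.6 TPM) did not overlap. Nor did Myo1g and Myo1e (20.8 and 24.5 TPM).

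The family holds 18 further unconventional myosins, of which 6 had a mean of at least 1 TPM and were tested. For these and the lists below, genes were called at an adjusted p under 0.05 (limma, Benjamini-Hochberg over all 12819 genes) and a fold change above 1.5 or below 0.67. Over all genes this rule called 12.7% higher and 20.0% lower in LPS and DMSO (32.7% in all), 3.35% and 6.14% in LPS + Ska and LPS (9.49%), and 11.4% and 25.3% in LPS + Ska and DMSO (36.7%). The 12 myosins not tested had no more than 0.933 TPM in any sample, and 3 were at 0 in every sample. Of the 6, 2 were called higher (Myo1d, Myo9a) and 1 lower (Myo10) with LPS, 1 was called lower in LPS + Ska than in LPS (Myo1d), and 1 was higher (Myo1d) and 1 lower (Myo10) in LPS + Ska than in DMSO.

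Myo1d, a short-tailed class I motor of endosomes and of left-right asymmetry in animals, rose from 11.0, 9.07 and 12.8 TPM in DMSO to 59.8, 60.6 and 59.1 TPM with LPS, and stood at 28.5, 31.9 and 25.2 TPM with LPS + Ska. None of the groups overlapped, and LPS + Ska lay between the others. The log2 differences were 2.36 (SE 0.12, adjusted p = 4.5e-07), -1.05 (SE 0.12, adjusted p = 4.3e-04) and 1.31 (SE 0.12, adjusted p = 1.3e-05). Myo1d and Myo1h thus had the same signs in the first 2 comparisons, but Myo1d kept a raised level in LPS + Ska whereas Myo1h was close to its DMSO value. Myo9a, like Myo9b a myosin with a RhoGAP domain, had 9.21, 9.04 and 11.9 TPM in DMSO, 15.8, 15.2 and 16.5 TPM in LPS and 12.1, 14.9 and 9.21 TPM in LPS + Ska. It rose with LPS (0.62, SE 0.16, adjusted p = 0.0083), a call that was lost without DMSO replicate 5 (0.57) or DMSO replicate 6 (0.55), both inside the fold limit. The other class IX gene, Myo9b, was lower with LPS by the values above, and the difference between them was not tested.

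Myo10, the motor of filopodial tips, fell from 30.9, 31.2 and 31.0 TPM to 19.6, 19.7 and 19.4 TPM with LPS (-0.64, SE 0.06, adjusted p = 2.0e-05), a call lost with median-ratio scaling, where the difference was -0.55. It was at 16.6, 16.9 and 16.3 TPM in LPS + Ska (-0.87 from DMSO, adjusted p = 2.6e-06). Myo18a, Myo7a and Myo19 were called in no comparison. Myo7a, a motor of phagosomes and hair cells, had 47.7 to 52.7 TPM in DMSO, 39.8 to 42.0 TPM in LPS and 33.3 to 41.3 TPM in LPS + Ska, with a difference of -0.31 (SE 0.08, adjusted p = 0.0097) in LPS and DMSO that stayed inside the fold limits. Myo18a, a Golgi-associated myosin, had 14.9 to 18.8, 10.9 to 11.7 and 11.1 to 11.2 TPM in the 3 groups (-0.50, SE 0.09, adjusted p = 0.0014, in LPS and DMSO). Myo19, which moves mitochondria, had 16.5 to 18.7, 18.0 to 19.1 and 15.1 to 17.2 TPM (0.09, SE 0.08, adjusted p = 0.38).

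Summed over the 25 unconventional myosins, the level was 531 to 562 TPM in DMSO, 398 to 411 TPM in LPS and 268 to 344 TPM in LPS + Ska, with no overlap. The 7 members made up 74.1 to 75.6% of this sum in DMSO, 57.4 to 59.8% in LPS and 58.6 to 61.0% in LPS + Ska. Myo1f went from 19.7 to 19.9% of the sum in DMSO to 2.38 to 2.89% in LPS and 5.23 to 6.12% in LPS + Ska. Myo1d took 1.71 to 2.27%, 14.4 to 15.2% and 9.27 to 9.40% in turn, so that the class I gene with the largest share was Myo1f in DMSO, whereas with LPS the samples of Myo1d and Myo1c (14.2 to 14.7%) overlapped. Myo1h, for all its difference between groups, held no more than 1.85% of the sum. The 8 class I myosins together held 55.3 to 57.1% in DMSO, 50.7 to 50.8% in LPS and 47.3 to 47.7% in LPS + Ska.

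**Figure D4:**
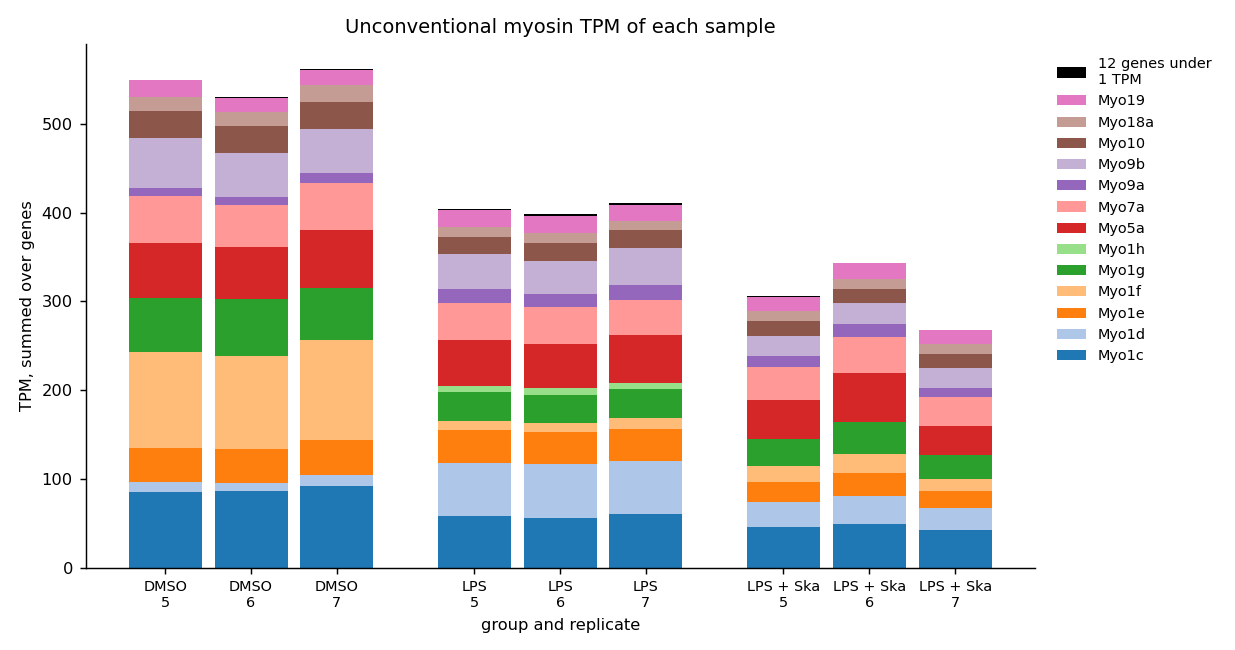
Stacked TPM (y axis, linear, from 0) of the unconventional myosins in each of the 9 samples, with 1 colour per gene and black for the 12 genes with a mean under 1 TPM. The bars total 531 to 562 TPM in DMSO, 398 to 411 TPM in LPS and 268 to 344 TPM in LPS + Ska, the Myo1f band is wide in DMSO alone, and the Myo1d band is widest in LPS.

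The genes on which these motors depend were taken as a list of 33 light chains, chaperones and binding partners, of which 29 were tested. With LPS, 2 rose (Rilpl2, Cd2ap) and 3 fell (Rab8a, Sh3bp2, Unc45a), and the median log2 difference was -0.01. Rilpl2, which binds the tail of Myo5a, rose from 16.7, 19.7 and 24.5 TPM to 67.4, 72.2 and 62.7 TPM (1.70, SE 0.12, adjusted p = 3.1e-06) and was at 74.3, 73.9 and 74.6 TPM in LPS + Ska, while Myo5a itself was not higher in either group. Cd2ap, an adaptor that links receptors to actin, rose by 0.72 (SE 0.10, adjusted p = 2.7e-04). Unc45a, the chaperone that folds myosin heads, fell by 0.69 on the log2 scale (SE 0.07, adjusted p = 3.9e-05), from 25.4 to 27.9 TPM in DMSO to 15.8 to 16.4 TPM in LPS. Sh3bp2, an adaptor that binds the SH3 domain of Myo1f, differed by -0.74 (SE 0.13, adjusted p = 8.4e-04), and the vesicle GTPase Rab8a by -0.66 (SE 0.08, adjusted p = 1.3e-04), a call lost with median-ratio scaling (-0.57).

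Between LPS + Ska and LPS, 1 of the 29 was called, and it was lower. Calml4, a calmodulin-like light chain of brush border Myo7b, had 2.34, 1.95 and 2.72 TPM in LPS and 0.629, 0.657 and 0.601 TPM in LPS + Ska (-1.03, SE 0.14, adjusted p = 9.4e-04). DMSO, at 2.44 to 2.70 TPM, overlapped LPS. This call could not be made with a mean of at least 5 TPM required, since Calml4 is then left out. Between LPS + Ska and DMSO, 2 were higher (Rilpl2, Cd2ap) and 6 lower (Calml4, Dnm2, Rab27a, Rab8a, Sh3bp2, Unc45a), with a list median of -0.14. Dnm2, the dynamin that pinches off vesicles and binds Myo1e, was at 134 to 142 TPM in DMSO, 94.5 to 98.6 TPM in LPS and 68.4 to 78.3 TPM in LPS + Ska, and LPS + Ska and DMSO differed by -0.90 (SE 0.06, adjusted p = 2.1e-06). Rab27a, the GTPase that recruits Myo5a to granules, differed by -0.89 (SE 0.15, adjusted p = 6.1e-04). The Cd2ap call (0.59) was lost without DMSO replicate 5 (0.52) or LPS + Ska replicate 6 (0.50), and those of Unc45a and Rab8a with median-ratio scaling (-0.51 and -0.48).

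For comparison, the list of filament-forming myosin II chains and their regulators held 16 gene entries for 15 symbols, of which 12 were tested. With LPS, 2 rose (Rock1, Ppp1cb) and 5 fell (Myh9, Myl6, Myl6b, the Myl12b entry ENSMUSG00000034868, Ppp1r12c), with a median of -0.48. Myh9, the main non-muscle myosin heavy chain of leukocytes, fell from 136, 136 and 148 TPM to 80.9, 76.4 and 85.5 TPM (-0.78, SE 0.06, adjusted p = 6.0e-06) and was at 68.7, 67.6 and 69.9 TPM in LPS + Ska. Rock1, a kinase that raises myosin II phosphorylation, rose by 1.03 (SE 0.10, adjusted p = 2.9e-05), and Ppp1cb, the catalytic subunit of the myosin phosphatase, by 0.70 (SE 0.09, adjusted p = 1.4e-04). The called light chains differed by -1.04 (Myl6, SE 0.24, adjusted p = 0.0047), -1.06 (Myl6b, SE 0.30, adjusted p = 0.013) and -0.88 (Myl12b, ENSMUSG00000034868, SE 0.09, adjusted p = 2.9e-05). The second and more abundant Myl12b entry (ENSMUSG00000117098) had 228 to 257 TPM in DMSO and 180 to 187 TPM in LPS. It was not called (-0.42, SE 0.17, adjusted p = 0.062, limma). Ppp1r12c, a targeting subunit of the phosphatase, differed by -0.76 (SE 0.07, adjusted p = 2.6e-05). Between LPS + Ska and LPS, 0 of the 12 were called by limma, and 1 had an unadjusted p under 0.05 (Myh9, -0.23, SE 0.06, adjusted p = 0.020). Between LPS + Ska and DMSO, 2 were called higher and 7 lower, the latter with the second Myl12b entry (ENSMUSG00000117098, -0.69, SE 0.17, adjusted p = 0.0068) and Ppp1r12b added, and the median was -0.69. Of these calls, that of Myl6b was lost without DMSO replicate 5 (adjusted p = 0.054, limma), that of the second Myl12b entry without LPS + Ska replicate 6 (-0.46) and that of Ppp1r12b without LPS + Ska replicate 7 (-0.53).

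By position, the members were spread over 5 chromosomes, with Myo1c and Myo1g on chromosome 11 and Myo1e and Myo5a on chromosome 9. Myo1d is also on chromosome 11, at chr11:80482126-80780025 on the minus strand, some distance from Myo1c (chr11:75650504-75673910, plus strand) and Myo1g (chr11:6506548-6520965, minus strand). Myo1f lies on chr17:33555707-33607764, Myo1e on chr9:70207350-70399766, Myo5a on chr9:75071015-75223688 and Myo9b on chr8:71272714-71360713, all on the plus strand of GRCm38. Exon bases per gene ran from 4970 (Myo1f) to 14803 (Myo5a), with 5927 in Myo1h.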

How the data were processed

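RNA of 9 RAW264.7 samples was sequenced by the authors, with NEBNext Ultra libraries, and deposited as a table of TPM for 55401 genes by Ensembl identifier. The submitters' processing notes name fastp 0.20.1, HISAT2 2.2.1, StringTie 2.0 and mm10, and the strand setting is not given in the sources used here. TPM keeps no depth, so no counting error could be given. Columns were matched to samples by title. Symbols were found for 55141 identifiers.

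Genes with a mean of at least 1 TPM (12819) were fitted in R 4.3.3 by limma 3.58.1 (lmFit, trended eBayes) after log2(TPM + 1), using the 3 groups of all 9 columns and no covariate. A call required an adjusted p (Benjamini-Hochberg) under 0.05 together with a fold above 1.5 or under 0.67. Differences in the text are on the log2(TPM + 1) scale and understate those of low genes. The model was also run on simulated data, and no result here rests on that run. The p-values measure the spread between columns, which may be technical.

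Correlations of the deviations of same-numbered columns were 0.38, 0.15 and 0.13 between LPS and LPS + Ska, whose columns are tied in the same form, and -0.032 to 0.080 otherwise, so numbers were not treated as pairs.

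The 7 members and the lists were chosen with earlier results of these data known. Named were the members, the other unconventional myosins with a mean of at least 1 TPM, up to 8 genes called in each of the other lists (those with the largest change), the 5 genes most like Myo1h and the 3 nearest genes on each side of it. Ppp1r12b was named after its values were seen, to complete a count. Positions, exons and transcripts came from GENCODE M21 (GRCm38), the genome build of mm10, and promoter windows from RefSeq (GRCm38.p6), which held windows for all 7 members. Protein sequences were not used here. Python 3.11.15 and matplotlib 3.10.9 drew the figures. Alternatives were another pseudocount, other filters, median-ratio scaling, fits of the compared groups alone, no trend, a replicate block, the 2 values recovered from tied columns, adjusted p alone and each column left out.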

Additional observations from a re-analysis of the deposited data

How the results depend on the processing

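Depth is unknown, and the tied columns leave few independent values. Across pseudocount, filter, scaling, trend, block, recovered values and left-out columns, the sign of the members' differences turned only in Myo1e (LPS and DMSO, 0.02 with scaling) and in Myo1g (LPS + Ska and LPS, -0.17 to 0.05). Myo1h could not be tested with a mean of at least 5 TPM. Calls over all genes numbered 4189, 1216 and 4700 for LPS and DMSO, LPS + Ska and LPS, and LPS + Ska and DMSO. With adjusted p alone they were 7734, 3663 and 8116. The same limit called 19, 6 and 21 light chains, chaperones and partners, 5, 2 and 4 other unconventional myosins, and 11 and 1 myosin II genes in the first 2 comparisons. With a mean of at least 5 TPM, 0 partners were called in LPS + Ska and LPS. With median-ratio scaling the higher and lower calls were 2001 and 2101, 595 and 540, and 2212 and 2246, against 1630 and 2559, 429 and 787, and 1457 and 3243. With the replicate block, although replicate numbers were not treated as pairs, the calls were 4235, 1198 and 4729, and recovered values gave 4167, 1002 and 4657. Without 1 column they ranged from 3996 to 4238, 905 to 1499 and 4514 to 4810. The causes were not tested. With median-ratio scaling the calls of Myo10 and Rab8a (LPS and DMSO) and of Rab8a, Unc45a, Ppp1r12b, Ppp1r12c and the second Myl12b entry (LPS + Ska and DMSO) were lost, and without a filter that of Myl6b (adjusted p = 0.050).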
